A study of Rattus norvegicus with 43 samples.

Results

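The 10 genes followed here are keratins and markers of the bile duct and of liver progenitor cells, measured in rat liver and in rat primary hepatocytes (RPH) taken from it: the keratins Krt7, Krt8, Krt18 and Krt19, the transcription factor Sox9, the surface proteins Epcam and Cd24, the secreted phosphoprotein Spp1 (osteopontin), the secretin receptor Sctr and the chloride channel Cftr. They were chosen by name, and each gene was read from the brightest probe set that lists it as its only gene. Of the 10 genes, 9 had such a probe set, 1 each, among 14217 genes in all, and Sox9 was not analysed here.

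Keratins form the intermediate filaments of epithelia. Hepatocytes use Krt8 and Krt18, and the cells that line bile ducts add Krt7 and Krt19. Sox9, Epcam, Spp1 and Cd24 are used to find duct cells and the progenitor cells beside them, while Sctr and Cftr serve the mature duct cell in the secretion of a bicarbonate-rich fluid.

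RPH were isolated by perfusion from 3 male Sprague Dawley rats, and a lobe tied off before the perfusion gave the liver sample of the same animal. The groups were liver, the pellet of freshly isolated cells (RPH 0 h) and cells kept on collagen-coated plates for 4, 24 and 48 h (RPH 4 h, RPH 24 h and RPH 48 h). Each group had 3 rats, and no test compound was added. The medium held insulin, transferrin, dexamethasone and serum for 4 h, and was then exchanged for one without serum. RPH 24 h and RPH 48 h thus also followed the removal of serum, whose part was not tested. Up to 3 technical RG230-2 arrays were made per rat and group, and the 43 arrays were averaged to 15 samples. Signals are MAS5 values scaled to a trimmed mean of 500 on each array, and the median probe set of an array lay between 79.7 and 145. The replicates are separate rats, and their number limits the precision.

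The p values are two-sided and come from limma fitted across the 10643 genes that passed a filter on dim signal, adjusted by Benjamini-Hochberg within each comparison, and a gene was called at an adjusted p under 0.05. An exact permutation test of 3 against 3 cannot go below p = 0.1. Log2 fold changes are given with their SE. In liver and in cell pellets the signal is a sum over all cells, so fewer cells of a type and less RNA per cell cannot be told apart.

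A pair of arrays went against their labels, the third technical arrays labelled RPH 0 h of rat 1 and liver of rat 1. Hbb, the beta globin of red cells, read 139.5, 203 and 27540 on the 3 arrays labelled RPH 0 h of rat 1, against 28570, 30610 and 163 on the 3 arrays labelled liver of rat 1. Atf3, a transcription factor of the stress response, read 5117, 5380 and 88.0 on the same RPH 0 h arrays, against 55.5, 61.0 and 5740 on the liver arrays. Of the 43 arrays, 41 had their closest match in their own rat and group, and the 2 exceptions were these. Each was closer to the group of the other. The array labelled liver correlated at r = 0.963 to 0.965 with the other RPH 0 h arrays of rat 1 and 0.946 to 0.947 with its other liver arrays. The array labelled RPH 0 h correlated at 0.969 to 0.971 with those liver arrays and 0.935 to 0.946 with those RPH 0 h arrays. The labels were kept, so the fit with all arrays holds both as labelled. Tests of the genes of interest that involve liver or RPH 0 h are given with all arrays and without these 2. For other genes the values without the 2 are given only in part. A value given once is with all arrays and may differ without the 2.

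Among the genes of interest, Krt19 and Cd24 differed in the same way as Hbb. Krt19 read 47.1, 82.5 and 154 on the arrays labelled RPH 0 h of rat 1, against 163, 166 and 29.1 on those labelled liver of rat 1. Cd24 read 3.43, 28.2 and 151 on the RPH 0 h arrays, against 128.5, 75.1 and 20.9 on the liver arrays. Epcam differed the other way, as did Krt8. It read 931, 934 and 717 on the RPH 0 h arrays, against 815, 803 and 1018 on the liver arrays. On the RPH 0 h arrays the third reading of Cftr (57.25) lay between the others (41.65 and 80.22).

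**Figure D1:**
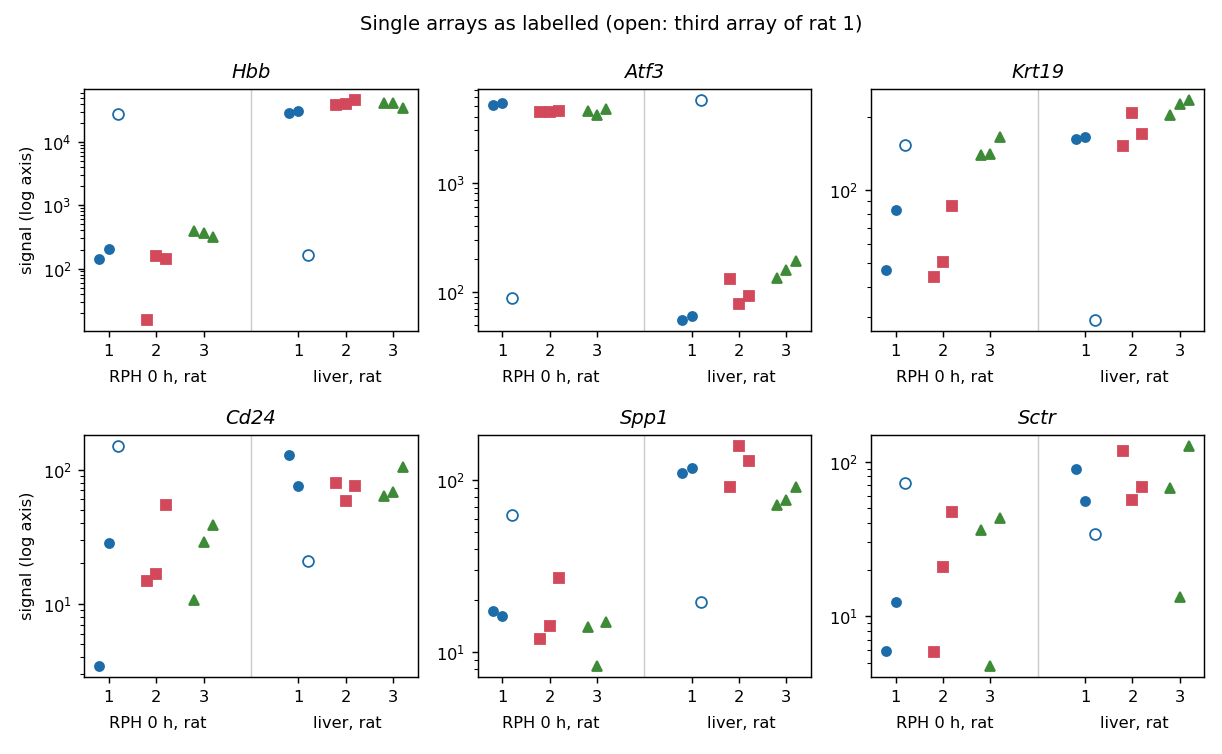
Signal on each technical array (log axis) of RPH 0 h (left) and liver (right) in rats 1, 2 and 3, with the third array of rat 1 drawn open. In all 6 panels the open point labelled RPH 0 h is the highest of that rat and group except for Atf3, where it is the lowest (88.0), and the open point labelled liver is the lowest except for Atf3 (5740).

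Of the 9 measured genes, 6 passed the filter, which asked for a signal above the array median on at least 5 of 43 arrays. Krt8, Krt18 and Epcam passed on 43 arrays, Krt19 on 12, Cd24 on 7 and Sctr on 6. Krt19 passed through liver (8 arrays) and RPH 0 h (4), Cd24 mainly through RPH 48 h (5) and Sctr mainly through RPH 24 h (5), so these 3 were tested only because a group was high, and counts over the 6 genes are a description. Spp1 was above the median on 1 array and Krt7 and Cftr on 0, and these 3 are given from a fit of all 14217 genes with no filter. Technical arrays of a rat differed by an SD of 0.17 (log2) for Krt8 and Krt18 and 0.11 for Epcam, against 0.85 to 1.03 for the other 6 genes, where it exceeded the SD between rats. The fold changes of Krt19, Sctr, Cd24 and Spp1 are therefore shown a second time after raising every signal by 32 before log2, called the offset here.

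**Figure D2:**
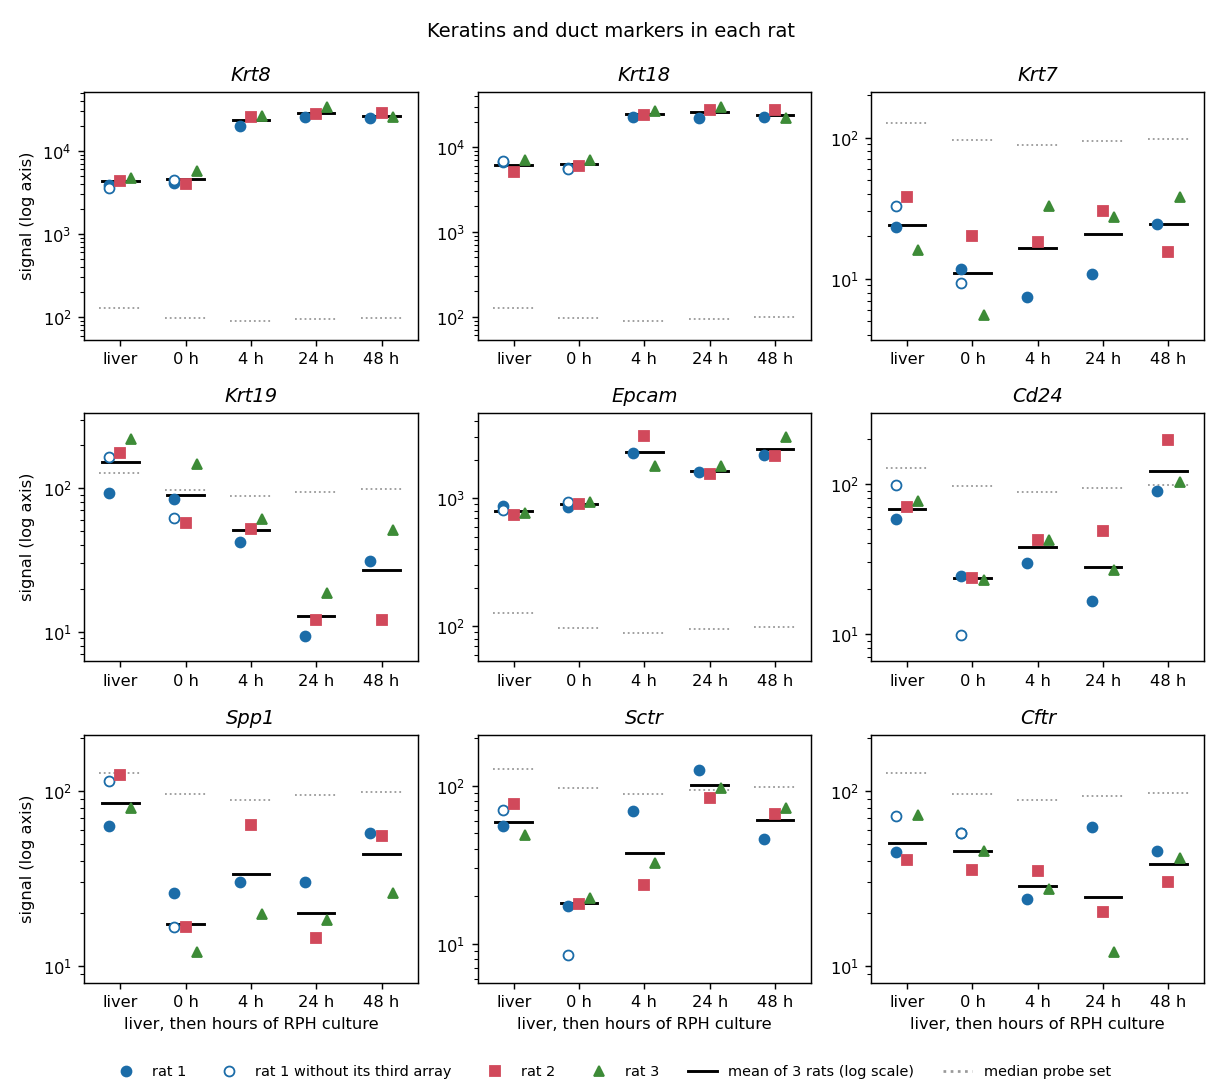
Signal (log axis) of the 9 measured genes in liver and in RPH at 0, 4, 24 and 48 h, with a point per rat, a black bar for the mean of 3 rats on the log scale and a dotted line for the median probe set. Open circles give rat 1 without the third array. Krt8, Krt18 and Epcam lie far above the dotted line and higher from 4 h on, and Krt19 is lowest at 24 h (9.37 to 18.7).

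Krt8 and Krt18, the keratins of the hepatocyte itself, were several-fold brighter in culture than in the pellet or the liver, and most of the rise was present at 4 h. Krt8 in rats 1, 2 and 3 read 3897, 4338 and 4765 in liver, 4074, 4027 and 5786 in RPH 0 h, 20120, 25330 and 26380 in RPH 4 h, 25250, 28040 and 34020 in RPH 24 h, and 24920, 28270 and 25280 in RPH 48 h. Every cultured sample lay above every sample of liver and RPH 0 h, and those 2 groups overlapped.

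Krt8 rose 5.21-fold by 4 h over RPH 0 h (log2 fold change 2.38 ± 0.18, limma adjusted p = 9.21e-07), 6.33-fold by 24 h (2.66 ± 0.18, adjusted p = 1.6e-07) and 5.72-fold by 48 h (2.52 ± 0.18, adjusted p = 2.09e-07), in 3 of 3 rats each time. RPH 48 h stood 6.05-fold above liver (2.60 ± 0.18, adjusted p = 1.56e-07). Without the 2 arrays these 4 values were 2.34, 2.62, 2.475 and 2.64, with a highest adjusted p of 1.11e-06. RPH 0 h and liver differed by 0.08 ± 0.18 (adjusted p = 0.889), and without the 2 arrays by 0.17 ± 0.18 (adjusted p = 0.685). Between RPH 24 h and RPH 4 h the difference was 0.28 ± 0.18 (adjusted p = 0.234), which passed only after quantile normalization (0.50, adjusted p = 0.0336).

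Krt18, the filament partner of Krt8, read 6686, 5131 and 7060 in liver, 5717, 6076 and 7065 in RPH 0 h, 22970, 23810 and 26910 in RPH 4 h, 22000, 27090 and 29890 in RPH 24 h, and 22790, 27140 and 22100 in RPH 48 h. The cultured samples again lay apart from liver and RPH 0 h. Over RPH 0 h it rose 3.92-fold by 4 h (1.97 ± 0.17, adjusted p = 2.5e-06), 4.17-fold by 24 h (2.06 ± 0.17, adjusted p = 8.87e-07) and 3.82-fold by 48 h (1.93 ± 0.17, adjusted p = 1.15e-06), and it stood 3.84-fold above liver at 48 h (1.94 ± 0.17, adjusted p = 1.14e-06). RPH 0 h and liver differed by 0.01 ± 0.17 (adjusted p = 0.992). The 4 rises were 1.98, 2.075, 1.95 and 1.92 without the 2 arrays, with a highest adjusted p of 2.54e-06, and the difference on isolation was -0.02 ± 0.17 (adjusted p = 0.965). For both genes the rises over RPH 0 h passed the threshold in all 22 alternatives run.

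Over the 15 samples Krt18 was the gene most like Krt8 (Pearson r = 0.992 on log2 signal), before Tes (0.989) and Rnd1 (0.988), and after Krt8 the genes most like Krt18 were Cipc (0.986) and Tes (0.984). Without the 2 arrays Krt18 (0.987) again came first for Krt8, before Rnd1 (0.987) and Osbpl2 (0.984). For Krt18, Cipc (0.986) and Bag2 (0.985) then followed Krt8. The samples share 3 rats and fall into cultured and uncultured ones, so these values are descriptions. In the RefSeq annotation Krt8 and Krt18 both lie on chromosome 7, with 0 protein-coding genes and 1 long non-coding RNA gene between them.

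The promoters of Krt8 and Krt18 are printed because the 2 genes moved together. RefSeq promoter windows (GRCr8) matched 7 of the 10 genes, and the 250 bases before each annotated start were searched on both strands for TGANTCA (AP-1), GGAATG (TEAD), GGGCGG (GC box), TATAAA and CCAAT. Bases -200 to -51 are shown, with matches in capitals, for Krt8 at chr7:135010390-135010539 (minus strand) and Krt18 at chr7:135035968-135036117 (plus strand).
Krt8: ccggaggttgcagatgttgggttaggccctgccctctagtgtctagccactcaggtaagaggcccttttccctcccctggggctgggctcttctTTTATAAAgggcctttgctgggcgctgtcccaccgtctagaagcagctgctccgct
Krt18: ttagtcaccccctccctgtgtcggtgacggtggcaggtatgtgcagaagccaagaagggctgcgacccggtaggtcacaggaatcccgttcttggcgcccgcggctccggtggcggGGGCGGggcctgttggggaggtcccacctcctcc

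Krt8 held TATAAA at -104, overlapping a match on the other strand at -106, and 12.9% of 33469 promoter windows hold this motif. Krt18 held a GC box at -84, as 30.5% of windows do. The 2 windows shared none of the 5 motifs, which says only that these letters are not there.

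Epcam, an adhesion protein of epithelia used as a marker of duct and progenitor cells, was bright in every sample and also stepped up by 4 h. It read 873, 742 and 762 in liver, 854, 901 and 935 in RPH 0 h, 2245, 3063 and 1798 in RPH 4 h, 1611, 1530 and 1789 in RPH 24 h, and 2186, 2126 and 3010 in RPH 48 h. All cultured samples lay above all samples of liver and RPH 0 h.

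Epcam rose 2.58-fold by 4 h over RPH 0 h (1.37 ± 0.19, adjusted p = 0.000122), 1.83-fold by 24 h (0.87 ± 0.19, adjusted p = 0.00265) and 2.69-fold by 48 h (1.43 ± 0.19, adjusted p = 5.16e-05), and stood 3.05-fold above liver at 48 h (1.61 ± 0.19, adjusted p = 1.78e-05). These 4 values were 1.33, 0.83, 1.385 and 1.645 without the 2 arrays, with a highest adjusted p of 0.0031. The 24 h call was lost without rat 1 (adjusted p = 0.0526). RPH 0 h and liver differed by 0.18 ± 0.19 (adjusted p = 0.734), and without the 2 arrays by 0.26 ± 0.19 (adjusted p = 0.507), with 3 of 3 rats then higher. RPH 24 h was below RPH 4 h in 3 of 3 rats (-0.50 ± 0.19, adjusted p = 0.0548), and this passed in 8 of 22 alternatives. The genes most like Epcam over the 15 samples were Ptpn21 (r = 0.948), Ubap2 (0.945) and Ext1 (0.941). Without the 2 arrays they were Ptpn21 (0.951), Ubap2 (0.942) and Ccng1 (0.936).

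The promoter of Epcam is set beside those of the keratins because it stepped up at the same time (chr6:12649729-12649878, minus strand, GRCr8, bases -200 to -51). Capitals mark 4 GC boxes, at -175, -148, -114 and -98, and an AP-1 site at -141, a motif that 6.34% of windows hold.
Epcam: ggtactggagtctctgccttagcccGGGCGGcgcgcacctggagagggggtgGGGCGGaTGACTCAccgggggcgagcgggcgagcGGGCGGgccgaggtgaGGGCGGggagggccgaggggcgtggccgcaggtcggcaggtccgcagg

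Krt19, the keratin that marks duct cells, went the other way and was lower in culture. It read 92.4, 175 and 222 in liver (rat 1 165 without the third array), 84.2, 57.5 and 148 in RPH 0 h (rat 1 62.3 without the third array), 42.0, 52.1 and 61.3 in RPH 4 h, 9.37, 12.2 and 18.7 in RPH 24 h, and 31.0, 12.1 and 51.4 in RPH 48 h. No cultured sample reached the lowest liver sample. RPH 0 h and liver overlapped with all arrays and did not without the 2.

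Krt19 was 6.95-fold lower in RPH 24 h than in RPH 0 h (-2.80 ± 0.50, adjusted p = 0.000573, and 0.00123 with no filter), in 3 of 3 rats. RPH 48 h was 3.34-fold below RPH 0 h (-1.74 ± 0.50, limma adjusted p = 0.012, and 0.0199 with no filter) and 5.71-fold below liver (-2.51 ± 0.50, adjusted p = 0.00105, and 0.00205 with no filter). RPH 24 h was 3.97-fold below RPH 4 h (-1.99 ± 0.50, limma adjusted p = 0.00613, and 0.0111 with no filter). With the 2 arrays left out, RPH 24 h was 6.285-fold below RPH 0 h (-2.65 ± 0.47, adjusted p = 0.00053), and RPH 48 h was 3.02-fold below RPH 0 h (-1.59 ± 0.47, adjusted p = 0.0136) and 6.92-fold below liver (-2.79 ± 0.47, adjusted p = 0.000293). On isolation the difference was -0.77 ± 0.50 (adjusted p = 0.544), and without the 2 arrays -1.20 ± 0.47 (adjusted p = 0.187, and 0.0447 with the rat as a block), lower in 3 of 3 rats.

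These folds rest on signals under the array median, which Krt19 passed on 0 of 9 arrays of RPH 24 h and 0 of 8 of RPH 48 h. With the offset the differences were smaller and were still called. RPH 24 h then differed from RPH 0 h by -1.36 ± 0.29 (adjusted p = 0.00143) and from RPH 4 h by -0.80 ± 0.29 (adjusted p = 0.0373). RPH 48 h differed from RPH 0 h by -0.99 ± 0.29 (adjusted p = 0.011) and from liver by -1.61 ± 0.29 (adjusted p = 0.000302).

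The call of Krt19 in RPH 48 h against RPH 0 h was lost without RPH 0 h of rat 3 (adjusted p = 0.0547), RPH 48 h of rat 2 (0.058), rat 1 (0.0602) or rat 2 (0.0668), and with the median of technical arrays (0.0557). That of RPH 24 h against RPH 4 h was lost without rat 1 (0.0637). Aox1 (r = 0.948), Mest (0.948) and Lrp5 (0.945) were most like Krt19, and without the 2 arrays Mest (0.946), Sorbs3 (0.937) and Lrp5 (0.93).

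Krt7, the other duct keratin, was dim throughout. It read 23.2, 38.0 and 16.1 in liver, 11.7, 20.3 and 5.56 in RPH 0 h, 7.45, 18.2 and 33.0 in RPH 4 h, 10.9, 30.2 and 27.5 in RPH 24 h, and 24.5, 15.6 and 37.9 in RPH 48 h. The groups overlapped in all 7 comparisons and none was called, with all arrays or without the 2. RPH 0 h was below liver in 3 of 3 rats (-1.15 ± 0.62, adjusted p = 0.462), and the difference was -1.41 ± 0.63 without the 2 arrays (adjusted p = 0.268).

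Sctr, through which secretin acts on duct cells, was lowest in the pellet and highest at 24 h. It read 55.2, 76.9 and 48.4 in liver (rat 1 70.6 without the third array), 17.4, 17.8 and 19.5 in RPH 0 h (rat 1 8.52 without the third array), 68.6, 23.5 and 32.3 in RPH 4 h, 126, 83.5 and 96.1 in RPH 24 h, and 46.3, 66.3 and 71.8 in RPH 48 h. Every RPH 0 h sample lay below every other sample, and RPH 48 h and liver overlapped.

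Sctr was 3.24-fold lower in RPH 0 h than in liver (-1.70 ± 0.33, adjusted p = 0.0395), and without the 2 arrays 4.46-fold lower (-2.16 ± 0.39, adjusted p = 0.00794), in 3 of 3 rats. With the offset the difference was -0.78 ± 0.20 (adjusted p = 0.0738), and without the 2 arrays as well -1.001 ± 0.21 (adjusted p = 0.0113). The call passed in 6 of 21 alternatives. It was lost also with no filter (adjusted p = 0.0707), with the rat as a block (0.0509), without liver of rat 1 (0.0531), rat 2 (0.226) or rat 3 (0.138), without RPH 0 h of rat 2 (0.172) or rat 3 (0.136), and without rat 2 (0.726) or rat 3 (0.59).

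In culture Sctr rose 5.52-fold by 24 h over RPH 0 h (2.46 ± 0.33, limma adjusted p = 5.87e-05, and 0.000153 with no filter). It was 3.32-fold higher at 48 h (1.73 ± 0.33, adjusted p = 0.000824, and 0.00171 with no filter), and both passed in all 21 alternatives. Once the 2 arrays were left out it was 6.99-fold higher at 24 h (2.81 ± 0.39, adjusted p = 7.53e-05) and 4.205-fold higher at 48 h (2.07 ± 0.39, adjusted p = 0.000728). Sctr lay under the array median on 9 of 9 arrays of RPH 0 h, and with the offset the differences were 1.25 ± 0.20 at 24 h (adjusted p = 0.000129) and 0.75 ± 0.20 at 48 h (adjusted p = 0.00657).

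At 4 h Sctr was 2.05-fold higher than in RPH 0 h (1.04 ± 0.33, limma adjusted p = 0.0235, and 0.0385 with no filter), and without the 2 arrays 2.60-fold (1.38 ± 0.39, adjusted p = 0.0128). This passed in 10 of 21 alternatives and was lost with the offset (0.38, adjusted p = 0.141), and without RPH 4 h of rat 1 (0.0937), RPH 0 h of rat 1 (0.0599) or rat 2 (0.0567), rat 1 (0.151) or rat 3 (0.105). RPH 24 h was 2.69-fold above RPH 4 h (1.43 ± 0.33, limma adjusted p = 0.00369, 0.00701 with no filter and 0.0742 without rat 3), and by 0.87 ± 0.20 with the offset (adjusted p = 0.00266). RPH 48 h and liver differed by 0.03 ± 0.33 (adjusted p = 0.941), and without the 2 arrays by -0.09 ± 0.39 (adjusted p = 0.871). Abcf2 (r = 0.87), Cryzl1-ps1 (0.86) and Mindy4 (0.848) were most like Sctr with all arrays. Without the 2 arrays other genes took their place, Traf7 (0.85), Iqgap1 (0.837) and Steap2 (0.832).

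Cd24, a surface glycoprotein of progenitor and duct cells, was low in the pellet and high at 48 h. It read 58.7, 70.6 and 76.6 in liver (rat 1 98.3 without the third array), 24.4, 23.6 and 22.8 in RPH 0 h (rat 1 9.83 without the third array), 29.8, 42.4 and 42.4 in RPH 4 h, 16.6, 48.1 and 26.8 in RPH 24 h, and 89.0, 197 and 103 in RPH 48 h. RPH 0 h and liver did not overlap, and with all arrays each RPH 48 h sample lay above all other samples.

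Cd24 was 2.89-fold lower in RPH 0 h than in liver (-1.53 ± 0.35, adjusted p = 0.0781, and 0.032 with the rat as a block), and without the 2 arrays 4.65-fold lower (-2.22 ± 0.42, adjusted p = 0.0104), in 3 of 3 rats. With the offset these differences were -0.73 ± 0.23 (adjusted p = 0.144) and, without the 2 arrays, -1.09 ± 0.23 (adjusted p = 0.0114). Cd24 rose 5.17-fold by 48 h over RPH 0 h (2.37 ± 0.35, limma adjusted p = 0.000107, and 0.000261 with no filter), and without the 2 arrays 6.997-fold (2.81 ± 0.42, adjusted p = 0.000113). The rise passed in all 21 alternatives. It lay above the array median on 1 of 9 arrays of RPH 0 h, and with the offset the rise was 1.32 ± 0.23 (adjusted p = 0.000233). RPH 48 h was 4.39-fold above RPH 24 h (2.134 ± 0.35, limma adjusted p = 0.00372, and 0.00819 with no filter), and this call was lost without rat 1 (0.0703) or rat 3 (0.113) and with only those 2 groups in the fit (0.0569). With the offset it was 1.33 ± 0.23 (adjusted p = 0.00264).

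Against liver, Cd24 in RPH 48 h differed by 0.84 ± 0.35 (adjusted p = 0.0614, 0.0185 with the rat as a block and 0.0404 with the offset, where it was 0.60), and without the 2 arrays by 0.59 ± 0.42 (adjusted p = 0.257), with 2 of 3 rats then higher. RPH 4 h was above RPH 0 h by 0.68 ± 0.35 (adjusted p = 0.141), and without the 2 arrays by 1.11 ± 0.42 (adjusted p = 0.0486), or 0.39 ± 0.23 with the offset as well (adjusted p = 0.191). Cmpk2 (r = 0.872), Kcns3 (0.819) and Rundc3a (0.793) were most like Cd24, and without the 2 arrays Cmpk2 (0.896), Hs6st1 (0.816) and Plxna1 (0.809).

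Spp1, a phosphoprotein that duct cells secrete, was under the filter. It read 63.5, 123 and 79.8 in liver (rat 1 114 without the third array), 26.0, 16.6 and 12.03 in RPH 0 h (rat 1 16.7 without the third array), 30.2, 63.8 and 19.9 in RPH 4 h, 30.3, 14.4 and 18.3 in RPH 24 h, and 57.8, 55.2 and 26.1 in RPH 48 h. No RPH 0 h or RPH 24 h sample reached the lowest liver sample.

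Spp1 differed by -2.30 ± 0.47 between RPH 0 h and liver (adjusted p = 0.0778), and without the 2 arrays it was 6.95-fold lower (-2.80 ± 0.43, adjusted p = 0.00485), in 3 of 3 rats. Spp1 lay under the array median on 9 of 9 arrays of RPH 0 h, and with the offset the difference was -1.25 ± 0.23 (adjusted p = 0.0201) and, without the 2 arrays, -1.53 ± 0.22 (adjusted p = 0.000814). RPH 48 h was 2.52-fold above RPH 0 h (1.33 ± 0.47, adjusted p = 0.0465), and without the 2 arrays 2.92-fold (1.55 ± 0.43, adjusted p = 0.015). This passed in 8 of 20 alternatives and was lost with the offset (0.62, adjusted p = 0.0523), without rat 1 (0.127), rat 2 (0.179) or rat 3 (0.0946), without RPH 0 h of rat 2 (0.102) or rat 3 (0.153), and without RPH 48 h of rat 1 (0.137) or rat 2 (0.14). Against liver, RPH 48 h differed by -0.97 ± 0.47 (adjusted p = 0.123), and without the 2 arrays by -1.25 ± 0.43 (adjusted p = 0.0362, and -0.80 with the offset as well, adjusted p = 0.00825).

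Cftr, the chloride channel of the duct cell's luminal side, was dim in all groups. It read 44.7, 40.2 and 72.7 in liver, 57.6, 35.5 and 45.4 in RPH 0 h, 24.2, 35.04 and 27.5 in RPH 4 h, 62.3, 20.3 and 12.1 in RPH 24 h, and 45.4, 30.3 and 41.3 in RPH 48 h. None of its comparisons was called, with all arrays or without the 2. RPH 24 h differed from RPH 0 h by -0.87 ± 0.47 (adjusted p = 0.19), and it was called lower without RPH 24 h of rat 1 (-1.53, adjusted p = 0.00535) and without rat 1 (-1.36, adjusted p = 0.0448). A change at such signals may not be detectable.

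Set side by side, the 6 filtered genes gave 0 higher and 1 lower (Sctr) in RPH 0 h against liver, where 0.141% of all genes tested were called higher and 0.432% lower. At an unadjusted p under 0.05 by limma, 0 of the 6 genes were higher and 2 lower, where 1419 of 10643 genes passed in either direction. Without the 2 arrays they gave 0 higher and 2 lower (Sctr and Cd24), where 0.339% were called higher and 3.39% lower. RPH 4 h against RPH 0 h gave 4 higher (Krt8, Krt18, Epcam and Sctr) and 0 lower, beside 16.3% and 22.7% of all genes, and without the 2 arrays 5 higher (with Cd24) and 0 lower, beside 16.5% and 22.4%. RPH 24 h against RPH 0 h gave Krt8, Krt18, Epcam and Sctr higher and Krt19 lower, beside 24.2% and 17.3%, and the same calls without the 2 arrays, beside 24.5% and 17.4%.

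RPH 48 h against RPH 0 h gave 5 higher (Krt8, Krt18, Epcam, Cd24 and Sctr) and 1 lower (Krt19), beside 26.6% and 17.5% of all genes, and the same calls without the 2 arrays, beside 26.8% and 17.5%. RPH 24 h against RPH 4 h gave 1 higher (Sctr) and 1 lower (Krt19), beside 26.3% and 13.5%, and without the 2 arrays 1 higher and 2 lower (with Epcam), beside 26.4% and 13.7%. RPH 48 h against RPH 24 h gave 1 higher (Cd24) and 0 lower, beside 2.51% and 1.78%, and the same call without the 2 arrays, beside 2.61% and 1.87%. RPH 48 h against liver gave 3 higher (Krt8, Krt18 and Epcam) and 1 lower (Krt19), beside 25.4% and 22.6%, and the same calls without the 2 arrays, beside 25.3% and 23%. In the fit with no filter, Spp1 was called higher in RPH 48 h than in RPH 0 h, as were 19.1% of genes. Without the 2 arrays Spp1 was called lower than liver in RPH 0 h, as were 2.17% of genes, and in RPH 48 h, as were 20.8%.

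By these calls Krt8, Krt18 and Epcam gained signal in culture with no detectable change on isolation, and ended above liver. Sctr was called lower after isolation with all arrays and without the 2, but that call passed in only 6 of 21 alternatives. It gained in culture and ended within error of liver. Cd24 and Spp1 were called lower after isolation once the 2 arrays were left out. Both were called higher at 48 h than in the pellet, Cd24 in all 21 alternatives and Spp1, which was under the filter, in 8 of 20. Krt19 was called lower in culture and ended below liver, and Krt7 and Cftr gave no call.

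**Figure D3:**
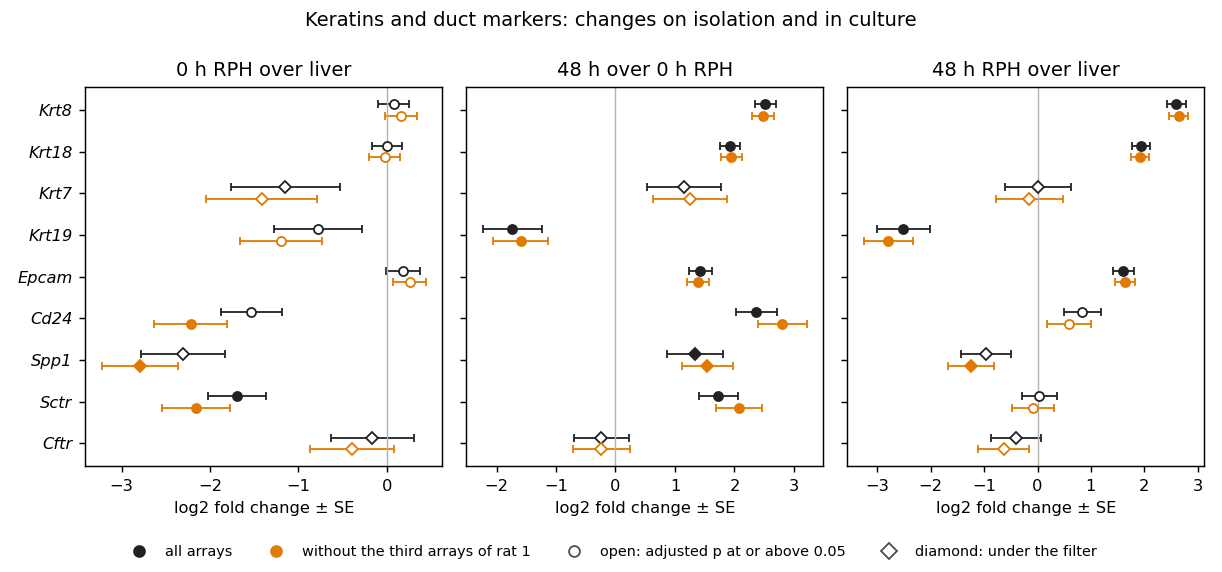
Log2 fold change ± SE (limma, 3 rats a group) of the 9 measured genes for RPH 0 h over liver, RPH 48 h over RPH 0 h and RPH 48 h over liver, with all arrays (black) and without the third arrays of rat 1 (orange). Filled symbols had an adjusted p under 0.05 and diamonds are genes under the filter. In the right panel Krt8 (2.60) and Krt19 (-2.51) stand at opposite ends.

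Other genes of the same roles were described from lists, whose counts in RPH 48 h against RPH 0 h stand beside 26.6% of all genes called higher and 17.5% called lower. A listed gene may have passed the filter only through a group where it was bright, so the direction of its call is not independent of the filter. The counts are a description. Of 21 other keratins, 5 passed the filter, and 0 were called higher and 3 lower in RPH 48 h against RPH 0 h, with all arrays and without the 2. Krt79 averaged 3.39 ± 1.02 in RPH 48 h and 178 ± 75.2 in RPH 0 h (SD, n = 3; -5.65 ± 0.55, limma adjusted p = 3.03e-06). Its RPH 48 h signal lay far under the array medians of that group (86.1 to 112), so the size of this change is uncertain. The offset is not given for the genes of the lists. Krt10 was also lower (-1.996 ± 0.23, adjusted p = 1.52e-05), as was Krt86 (-0.997 ± 0.32, adjusted p = 0.0208).

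Of 21 tested partners and linkers of intermediate filaments, 14 were called higher and 2 lower in RPH 48 h against RPH 0 h (15 and 2 without the 2 arrays, beside 26.8% and 17.5% of all genes), with a median log2 fold change of 0.96 beside 0.12 over all genes. Ppl, a plakin of the cell border, averaged 1677 ± 344 in RPH 48 h and 42.5 ± 38.9 in RPH 0 h (5.79 ± 0.63, limma adjusted p = 8.4e-06). The latter mean is under the array medians of RPH 0 h (87.7 to 116), so the size of this rise is uncertain. Vim, the filament protein of mesenchymal cells, averaged 9305 ± 1370 in RPH 48 h and 384 ± 108 in RPH 0 h (4.63 ± 0.28, adjusted p = 4.72e-08). The plakin Eppk1 (2.68) and the integrin Itga6 (1.89) were called higher as well. In RPH 0 h against liver 0 of the 21 were called by limma with all arrays and 1 was lower without the 2, beside 0.432% and 3.39% of all genes lower. At an unadjusted p under 0.05 with all arrays 3 of the 21 were lower, where 1419 of 10643 genes passed in either direction.

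Of 18 tested other duct cell genes, 7 were called higher and 4 lower in RPH 48 h against RPH 0 h, where 26.6% and 17.5% of all genes were (8 and 4 without the 2 arrays), with a median of 0.52 (0.56 without the 2 arrays). The protease St14 (3.28 ± 0.52, limma adjusted p = 0.000211) and Ggt1, which cleaves glutathione (2.41 ± 0.41, adjusted p = 0.000353), rose, and so did Cys1 (1.71). Tspan8, a membrane tetraspanin, fell (-2.08 ± 0.64, adjusted p = 0.0178, and -1.69 without the 2 arrays, adjusted p = 0.0238), as did the water channel Aqp1 (-1.67 ± 0.39, adjusted p = 0.00363), while the bile acid carrier Slc10a2 rose (0.87 ± 0.27, adjusted p = 0.018). In RPH 0 h against liver 0 of 18 were called by limma with all arrays and 2 were lower without the 2 arrays, beside 0.432% and 3.39% of all genes lower. At an unadjusted p under 0.05 with all arrays 1 was higher and 3 lower, where 1419 of 10643 genes passed in either direction.

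Of 14 tested other progenitor and fetal liver genes, 8 were called higher and 1 lower in RPH 48 h against RPH 0 h, beside the same 26.6% and 17.5% (9 and 1 without the 2 arrays), with a median of 1.35 (1.39 without the 2 arrays). The receptor Tnfrsf12a averaged 5115 ± 1291 in RPH 48 h and 138 ± 24.2 in RPH 0 h (5.20 ± 0.24, limma adjusted p = 3.35e-09). The transcription factor Sox4 (3.37 ± 0.31, adjusted p = 1.89e-06) and the laminin chain Lamb3 (2.84 ± 0.51, adjusted p = 0.000548) rose. Lgr5, a Wnt pathway receptor, fell (-2.81 ± 0.58, adjusted p = 0.00148). Klf6, a zinc finger factor, was already higher in RPH 0 h than in liver (1.61 ± 0.33, adjusted p = 0.0499, and 1.93 ± 0.26 without the 2 arrays, adjusted p = 0.00103).

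Of 25 tested Notch, Hippo and TGF-beta genes, 9 were called higher and 5 lower in RPH 48 h against RPH 0 h with all arrays and without the 2, again beside 26.6% and 17.5%, with a median of 0.01 (-0.09 without the 2 arrays). Ccn2, a matricellular protein known as a Hippo target, averaged 19930 ± 837 in RPH 48 h and 204 ± 185 in RPH 0 h (6.98 ± 0.48, limma adjusted p = 1.52e-07), and Ankrd1, another, rose as well (4.64 ± 0.67, adjusted p = 9.3e-05). The Notch targets Hey1 (-1.92 ± 0.34, adjusted p = 0.000507) and Hes1 (-1.83 ± 0.20, adjusted p = 8.73e-06) fell. Hes1 had been higher in RPH 0 h than in liver (1.08 ± 0.20, adjusted p = 0.0356, and 1.59 ± 0.23 without the 2 arrays, adjusted p = 0.00182).

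**Figure D4:**
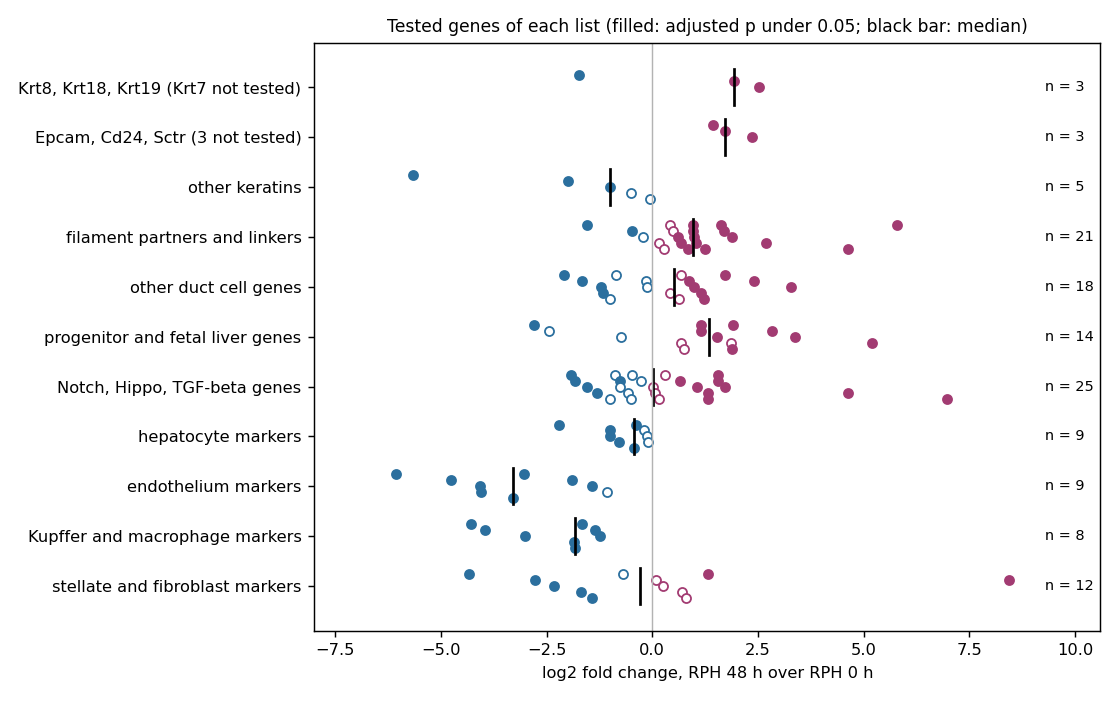
Log2 fold change of each tested gene of a list in RPH 48 h over RPH 0 h with all arrays, a point per gene, filled where the limma adjusted p was under 0.05, with a black bar at the median and the number of genes at the right. The median is 0.96 for filament partners, 1.35 for progenitor and fetal liver genes and -3.29 for endothelium markers.

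Markers of other liver cells moved over the same samples. The summed signal of 9 endothelium markers was 13500 to 16600 in liver, 8580 to 12300 in RPH 0 h and 578 to 1150 in RPH 48 h. That of 8 Kupffer cell markers was 16000 to 21700 in liver, 9030 to 11600 in RPH 0 h and 1600 to 2170 in RPH 48 h. That of 12 stellate cell markers was 7800 to 16200 in liver, 3320 to 7390 in RPH 0 h and 4840 to 6700 in RPH 48 h. Without the 2 arrays the sums were 8580 to 12300 in RPH 0 h and 15700 to 16600 in liver for endothelium, 9010 to 10200 in RPH 0 h and 16000 to 21700 in liver for Kupffer cells, and 3320 to 7390 in RPH 0 h and 10600 to 16200 in liver for stellate cells. Each sum was lower in every RPH 0 h sample than in any liver sample, with all arrays and without the 2.

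The sum of 4 red cell markers was 7720 to 58700 in liver, 190 to 1720 in RPH 0 h and 193 to 304 in RPH 48 h, and that of 7 lymphocyte markers 749 to 1040, 365 to 488 and 159 to 258 in the same groups. The sum of 9 hepatocyte markers was 218000 to 238000 in liver, 197000 to 246000 in RPH 0 h and 132000 to 155000 in RPH 48 h. The duct markers Aqp1 and Slc10a2 summed to 675 to 877 in liver, 590 to 711 in RPH 0 h and 516 to 1050 in RPH 48 h. With the 2 arrays left out, red cell markers summed to 190 to 639 in RPH 0 h and 37800 to 58700 in liver, lymphocyte markers to 365 to 384 in RPH 0 h and 971 to 1040 in liver, hepatocyte markers to 205000 to 246000 in RPH 0 h and 218000 to 238000 in liver, and the duct pair to 590 to 734 in RPH 0 h and 642 to 877 in liver. No defining marker was listed at 0.

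In RPH 0 h against liver, 2 of 9 endothelium, 0 of 8 Kupffer cell, 2 of 12 stellate cell, 3 of 4 red cell, 1 of 2 lymphocyte and 0 of 9 hepatocyte markers tested were called lower with all arrays, beside 0.432% of all genes. The counts without the 2 arrays were 4 of 9 endothelium, 5 of 8 Kupffer cell, 3 of 12 stellate cell, 3 of 4 red cell, 2 of 2 lymphocyte and 0 of 9 hepatocyte markers, beside 3.39% of all genes. At an unadjusted p under 0.05 by limma, 8 of 8 Kupffer cell and 0 of 9 hepatocyte markers were lower with all arrays. At that threshold 1419 of 10643 genes passed in either direction. Vwf, of vascular endothelium, averaged 19.4 ± 11.2 in RPH 0 h and 201 ± 96.4 in liver (-3.50 ± 0.54, limma adjusted p = 0.0201, and -4.52 without the 2 arrays, adjusted p = 0.00023). Stab2, of sinusoids, averaged 1232 ± 552 in RPH 0 h and 2000 ± 152 in liver (adjusted p = 0.475). Col1a1, a collagen of stellate cells, averaged 62.0 ± 31.97 in RPH 0 h and 231 ± 85.6 in liver (adjusted p = 0.0785, and 0.00173 without the 2 arrays), and Dcn, also of stellate cells, 79.2 ± 21.4 in RPH 0 h and 188 ± 74.6 in liver (adjusted p = 0.375).

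Cd68, of macrophages, averaged 822 ± 116.5 in RPH 0 h and 1441 ± 409 in liver (limma adjusted p = 0.174, and 0.0357 without the 2 arrays), and Clec4f, of Kupffer cells, 3309 ± 461 in RPH 0 h and 5192 ± 1021 in liver (adjusted p = 0.175, and 0.0273 without the 2 arrays). Cd3e, of T cells, was under the filter with 49.7 ± 7.62 in RPH 0 h and 97.4 ± 23.6 in liver. Alb averaged 32790 ± 6993 in RPH 0 h and 36550 ± 1527 in liver (adjusted p = 0.754), and Hnf4a 10720 ± 2638 in RPH 0 h and 10190 ± 1513 in liver (adjusted p = 0.939). The lower Sctr, Cd24 and Spp1 of RPH 0 h went with lower sums of endothelium, Kupffer, stellate, red cell and lymphocyte markers. The duct pair Aqp1 and Slc10a2 overlapped (590 to 711 in RPH 0 h, 675 to 877 in liver). In culture, the lower Krt19 went with lower endothelium, Kupffer cell and lymphocyte sums at 48 h. The stellate sum overlapped between RPH 0 h (3320 to 7390) and RPH 48 h (4840 to 6700), and 0 of 4 red cell markers were called there. The part of these cells in the results was not tested.

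In RPH 48 h against RPH 0 h, 8 of 9 endothelium and 8 of 8 Kupffer cell markers were called lower, 2 of 12 stellate cell markers higher and 5 lower, and 6 of 9 hepatocyte markers lower, beside 26.6% of all genes higher and 17.5% lower. Hnf4a averaged 5305 ± 746 in RPH 48 h and 10720 ± 2638 in RPH 0 h. Beta-actin read at its 3' end over its 5' end, a measure of RNA integrity, averaged 4.60 ± 2.05 in liver, 3.90 ± 0.65 in RPH 0 h, 2.97 ± 0.14 in RPH 4 h, 2.35 ± 0.14 in RPH 24 h and 2.22 ± 0.25 in RPH 48 h. With this ratio in the fit, Krt8 (2.24, limma adjusted p = 4.6e-05), Krt18 (1.96, 0.000146), Epcam (1.56, 0.00143), Cd24 (2.16, 0.0081), Sctr (1.485, 0.0361) and Krt19 (-2.33, 0.027) were called in RPH 48 h against RPH 0 h, and Spp1 was not (0.87, 0.425). The ratio fell in step with the groups, so RNA integrity and culture cannot be told apart in this fit.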

How the data were processed

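Gene expression was measured on 43 RG230-2 arrays of liver and RPH from 3 rats. The authors deposited MAS5 signal intensity on a linear scale, with each array scaled to a trimmed mean of 500 and 2 arrays left out by them, and the methods name both Command Console and the affy package for MAS5 values without saying which gave the deposited ones. Of 31099 probe sets, 57 were controls, 20826 named 1 gene, 436 several and 9780 none in the platform annotation. All 43 columns were matched to a sample, and 0 were left over. Intensities were taken to log2, technical arrays were averaged, probe sets above the array median on at least 10% of arrays (5) were kept (14553), and the brightest per gene was used, 10643 genes in all. Signals of different probe sets were not compared.

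Groups were compared in 7 contrasts with limma 3.58.1 in R 4.3.3 over all 15 samples with no block, with Benjamini-Hochberg adjustment. The fit was run on simulated data with independent noise in each sample and changes planted in RPH 48 h, for RPH 48 h against RPH 24 h only. That run cannot speak for RPH 0 h against liver or for samples that share a rat. Alternatives were quantile normalization, centring on the array median, an offset of 32, other filters, the median of technical arrays, the rat as a block, only the 2 groups compared, another prior, the beta-actin ratio as a covariate and leaving out each rat or sample. The mean of kept probe sets was run as well, but each member has 1 probe set, so it cannot move a member's value and is not counted among the alternatives. Leaving out the 2 discordant arrays was chosen after seeing the data. Same-numbered samples come from the same animal by the labels. Their deviations from the group means correlated with a median r of 0.341 over 30 pairs, against -0.179 over 60 pairs of different rats. For the same-rat pairs that include liver, r was lower. It ran from -0.0716 to 0.215 in rat 1, from -0.155 to 0.0205 in rat 2 and from 0.0802 to 0.567 in rat 3. The pairing of liver with its cells thus rests mainly on the labels.

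Genes named are the 10 members, up to 4 called genes of each list with the largest change in RPH 0 h against liver and in RPH 48 h against RPH 0 h (for the lists of other cells, counts and sums are given), the 3 genes most correlated with each filtered member, and the defining cell markers. The members and lists were chosen with earlier results of these data known. Prom1 stands in the duct and the progenitor lists, Itga6 in the filament and the progenitor lists, and Aqp1 and Slc10a2 in the duct and the marker lists.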

Additional observations from a re-analysis of the deposited data

How the results depend on the processing

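Alternatives were run on the count of members called in each comparison and on 63 log2 fold changes, and the number of genes called in RPH 0 h against liver was the least stable. There 1 member was called with all arrays, and 0 were called after centring on the array median, with the filter at 50% of arrays, with no filter, with an offset of 32, with only the 2 groups, after quantile normalization or with a robust and trended prior. Without the 2 discordant arrays 2 were called, with the offset added 2, and with the rat as a replicate block added 3. At an adjusted p under 0.01 the count of members lower on isolation was 0. The stricter filter, which drops Krt19, Cd24 and Sctr, gave 3 called in RPH 24 h and 3 in RPH 48 h against RPH 0 h, 1 in RPH 24 h against RPH 4 h and 0 in RPH 48 h against RPH 24 h. With only the 2 groups, RPH 48 h against RPH 24 h gave 0, and quantile normalization gave 4 in RPH 24 h against RPH 4 h. The replicate block (the rat) with all arrays called Cd24 in place of Sctr on isolation (adjusted p = 0.032 and 0.0509 by limma) and added Cd24 in RPH 48 h against liver (0.0185), and it changed no other member's call with all arrays.

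Leaving out a rat or sample gave 0 to 1 called in RPH 0 h against liver, 3 to 4 in RPH 4 h, 4 to 5 in RPH 24 h and 5 to 6 in RPH 48 h against RPH 0 h, 1 to 3 in RPH 24 h against RPH 4 h, 0 to 1 in RPH 48 h against RPH 24 h and 4 to 5 in RPH 48 h against liver. Sign changes were seen only where no call stood. For RPH 48 h against liver, Sctr was -0.26 with the beta-actin ratio, -0.099 with the median of technical arrays, -0.034 with the offset, -0.085 without the 2 arrays (with the replicate block too) and -0.11 with the offset added, and -0.23 to 0.22 over left-out samples, Krt7 was -0.16 without the 2 arrays (with the block too) and -0.60 to 0.66, and Cftr 0.13 after quantile normalization and -0.61 to -0.14. For RPH 0 h against liver, Cftr was 0.22 after centring and 0.27 after quantile normalization and -0.43 to 0.094 over left-out samples, Krt18 -0.093 after quantile normalization, -0.024 without the 2 arrays (with the block or offset too) and -0.13 to 0.12, and Krt8 -0.018 after quantile normalization and -0.093 to 0.17. For RPH 24 h against RPH 0 h, Spp1 was -0.20 with the beta-actin ratio and -0.094 to 0.50, and Cd24 -0.012 with the offset and -0.16 to 0.63. For RPH 24 h against RPH 4 h, Krt18 was -0.016 with the median of technical arrays and -0.0056 to 0.22, Cftr 0.013 with the offset (without the 2 arrays too) and -0.99 to 0.32, and Krt7 -0.23 to 0.84. For RPH 48 h against RPH 24 h, Krt18 was 0.083 and Krt8 0.038 after quantile normalization, with -0.25 to 0.027 and -0.24 to -0.0039 over left-out samples, and Krt7 -0.25 to 0.82. For RPH 4 h against RPH 0 h, Krt7 was -0.40 to 1.21. The cause was not tested. Another probe set per gene could not be tried, since each member had 1. The dim signals of the members other than Krt8, Krt18 and Epcam limit what can be detected.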
